A study of Homo sapiens with 6 samples.

Results

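Glycolysis, glucose uptake and lactate export were described through 36 genes, those of the deposited count table whose symbol stood on a list of glucose transporters, glycolytic enzymes, lactate dehydrogenase subunits, monocarboxylate transporters, and the pyruvate dehydrogenase complex with its kinases and a phosphatase. The table lists 60708 genes, of which 17401 had at least 10 reads in any sample and were tested. All 36 members were among them, with at least 14 reads in every sample. RNA had been sequenced from Caki-1, an established human line of clear cell carcinoma of the kidney, in 3 VC and 3 VHL-KO samples. VC cells were WT for VHL and had been infected with the lentiviral CRISPR vector alone, whereas VHL-KO cells had been infected with the vector carrying a guide RNA against VHL. The knockout lines were selected with puromycin and grown as clones, and which clone or guide was sequenced is not given in the sources used here. Nothing states that the 3 samples of a group came from separate cultures, so p-values measure only the spread between these samples, which may be technical, and loss of VHL and the choice of a clone cannot be told apart. Library totals were 31789923, 28463579 and 34881739 for VC and 29139722, 22805385 and 22628246 for VHL-KO cells.

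In glycolysis, glucose enters through transporters of the SLC2A family, is phosphorylated by hexokinase and is split and oxidized in a series of steps to pyruvate. Lactate dehydrogenase turns pyruvate into lactate, which leaves through monocarboxylate transporters, whereas the pyruvate dehydrogenase complex passes it to the mitochondrial citric acid cycle and is switched off by its kinases. Several steps have more than a single isozyme, encoded by separate genes that differ in tissue and in kinetic behaviour. VHL is the substrate-binding subunit of a ubiquitin ligase that marks the alpha subunits of HIF for degradation, and many genes of glycolysis are known targets of HIF, which is why clear cell renal carcinoma is known for high glucose use.

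VHL itself, at chr3:10141778-10153667 of GRCh38, was counted 1454, 1124 and 1522 times in the VC samples and 929, 657 and 650 times in the VHL-KO samples. After TMM scaling for library size to CPM, every VHL-KO sample lay under every VC sample, with means of 40.2 ± 2.38 and 31.9 ± 2.49 (SD, n = 3 each). The log2 fold change of -0.33 passed the threshold (edgeR quasi-likelihood F test, p adjusted by Benjamini-Hochberg over the tested genes = 0.0109). It no longer did so without VC replicate 1 or VHL-KO replicate 2, with upper quartile factors, or with offsets for the GC content and length of each gene, where it was -0.17. A guide leaves an edited transcript that can still be counted, and no value here measures the VHL protein. Of the genes for HIF subunits, the mRNA of HIF1A fell by 2.35 and that of EPAS1, which encodes HIF2-alpha, fell by 0.56 on the log2 scale. ARNT, their shared partner, had a log2 fold change of -0.06 and did not pass the threshold, though with the offsets it was called higher at 0.18. No value here measures HIF protein, and by immunoblot the study reported more protein of both alpha subunits in VHL-KO Caki-1 cells. Of 10 HIF targets outside glucose metabolism, 9 rose and 1 fell, beside 28.5% and 31.2% of all tested genes. NDRG1, a stress-response gene, rose by 6.03 and ADM, which encodes adrenomedullin, rose by 3.55, both on the log2 scale. CA9, for a carbonic anhydrase of the cell surface, was counted 0, 0 and 2 times in VC samples but 288, 247 and 233 times in VHL-KO samples. The gene that fell was EGLN3, an oxygen sensor, at -1.26, named here after its value was seen.

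Most members had higher mRNA levels in VHL-KO cells, and the change was not shared by every step. With an adjusted p under 0.05, 20 of the 36 members were higher and 9 were lower, against 28.5% and 31.2% of all tested genes. Changes of at least 2-fold were found for 13 members upward and 3 downward, against 13.9% and 12.3% of tested genes. With library size alone 8 members rose by at least 2-fold, and with offsets for GC content and length 1 member, SLC16A1, fell by at least 2-fold. Groups did not overlap for 20 members with VHL-KO higher and 9 with VHL-KO lower, against 31.2% and 33.5% of tested genes. The median log2 fold change of the members was 0.73, beside -0.01 for all tested genes. The difference between these medians was 0.74, and 0.58 with offsets for GC content and length. Scaling by library size alone moves every gene alike, and moved the median of all genes to -0.20 and that of the members to 0.54. Together the members took 2.23%, 2.38% and 2.15% of all counts of the VC samples, compared with 3.84%, 3.82% and 3.82% for the VHL-KO samples. The share was 1.70 times higher in VHL-KO cells, and 1.67 times without GAPDH, the most abundant member. The values describe bulk RNA, in which fewer cells that use a gene and less RNA per cell cannot be told apart.

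**Figure D1:**
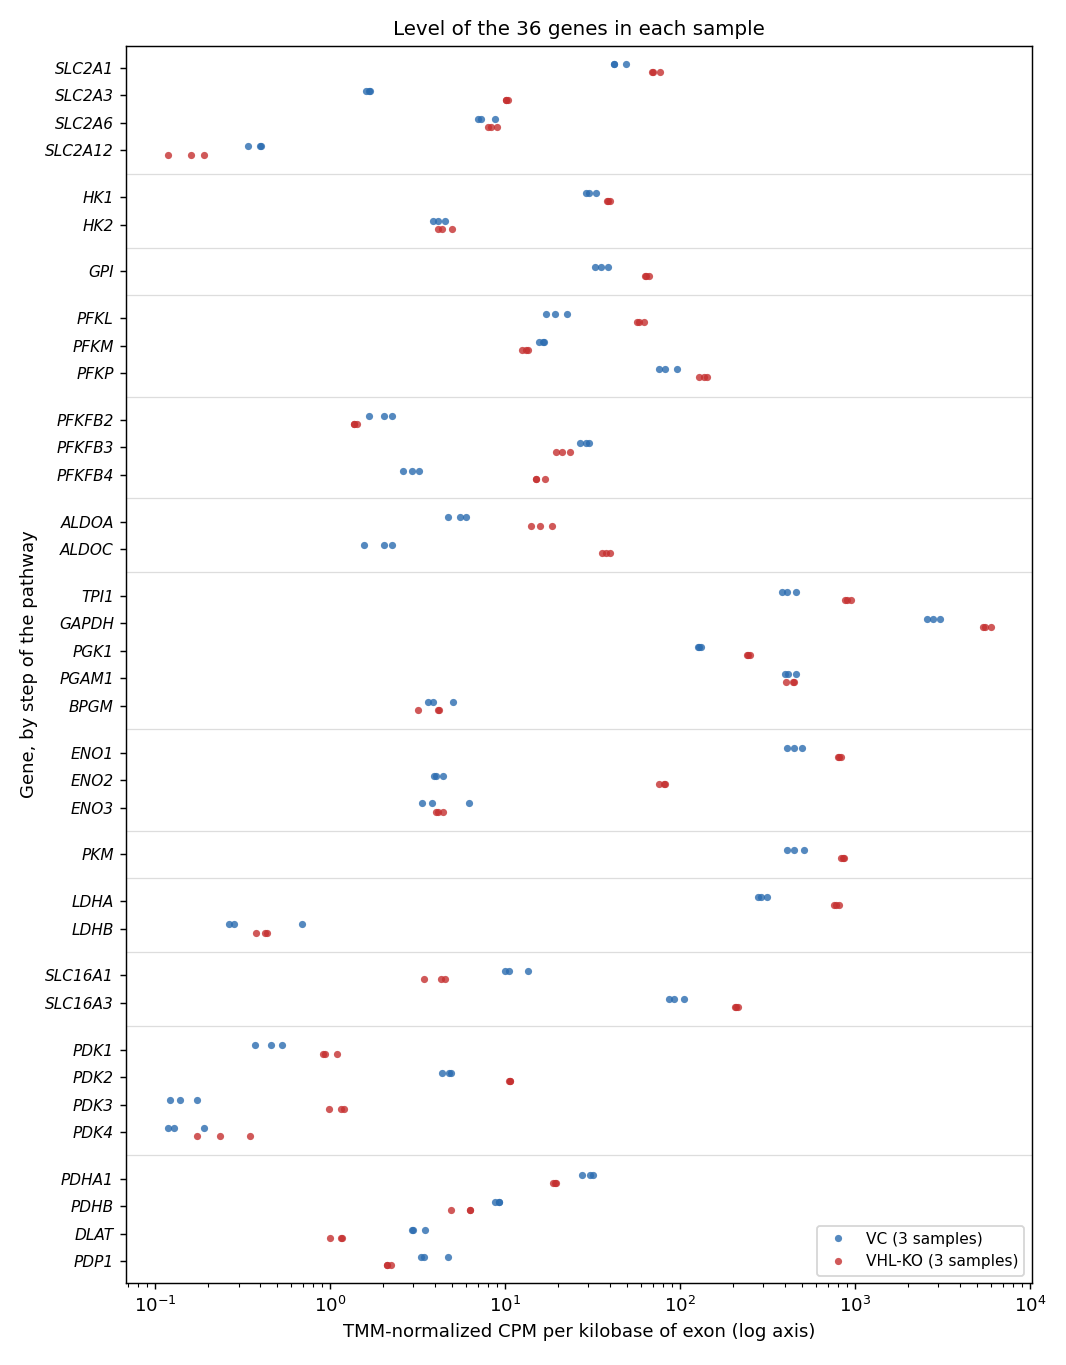
Level of each of the 36 genes in 3 VC (blue) and 3 VHL-KO (red) samples, as TMM-normalized CPM per kilobase of exon on a log axis, ordered by step. The groups do not overlap for 29 genes, 20 of them with VHL-KO higher, and mean levels span the range from 0.144 for PDK3 in VC to 5662 for GAPDH in VHL-KO cells.

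Log2 fold changes also followed the GC content of genes. Over 13144 tested genes with at least 1 CPM and a match in GENCODE, the median was -0.55 where GC content lay under 40% and 0.48 where it was 60% or more. Of the members, 30 have a GC content between these bounds, and their median log2 fold change was 0.77, or 0.59 with offsets per library that remove the trend with GC content and exon length. The 3 members under 40% are SLC2A12, PDK4 and DLAT, and the 3 at 60% or more are SLC2A6, PFKL and SLC16A3. With the offsets 21 members were higher and 9 lower, and the part of GC content in the changes was not tested further.

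**Figure D2:**
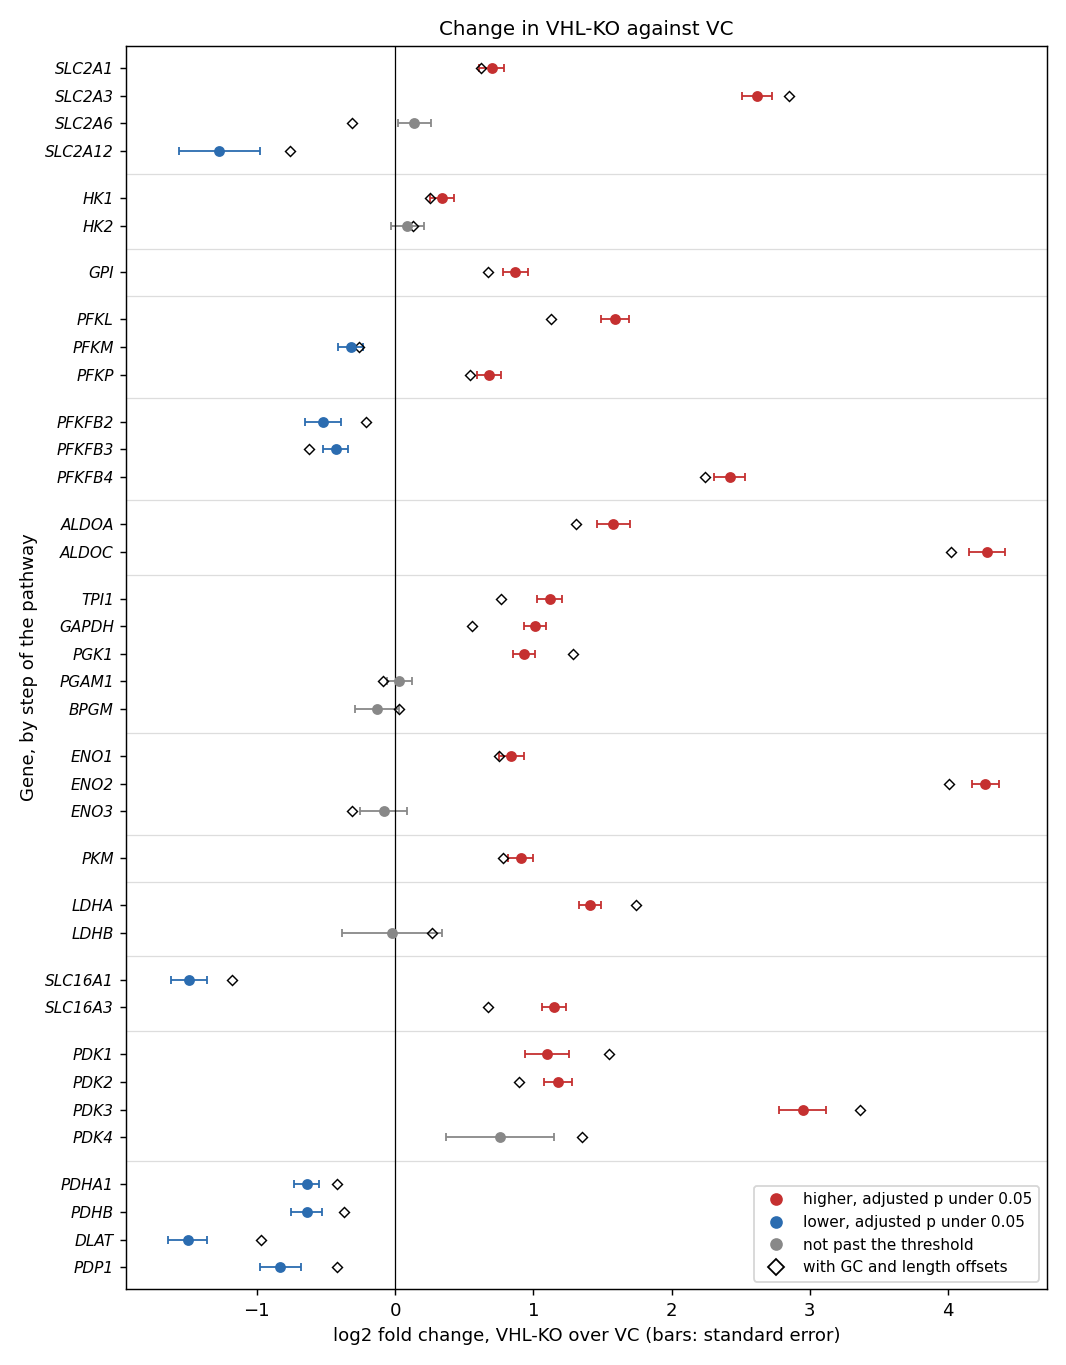
Log2 fold change of each member in VHL-KO against VC cells with its standard error (n = 3 each), coloured by the verdict at an adjusted p of 0.05, and the value with GC and length offsets as open diamonds. ALDOC and ENO2 lie above 4 with and without the offsets, and the subunits and phosphatase of the pyruvate dehydrogenase complex all lie under 0.

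Promoters were looked at as a further description of the members, of which 20 rose and 9 fell. The core of the hypoxia response element, the DNA letters to which HIF binds, was searched as ACGTG and GCGTG on both strands of RefSeq promoter windows on GRCh38.p14, which run from 250 bases before to 50 bases after a start. CACGTG reads the same on both strands and counts as 2 matches. The windows gave 61 matches to 32 of the 36 members, with no entry for SLC2A3, PFKFB2, SLC16A1 and PDP1. A motif was present in 39 of the 61 windows (63.9%), and in 17012 of all 35116 windows (48.4%). Among genes with a single window, it was present for 17 of 20 members (85.0%) and for 10466 of 22114 genes in all (47.3%). By the change in VHL-KO cells, it was present for 11 of the 11 single-window members that rose, 3 of the 4 that fell and 3 of the 5 that did not pass the threshold. In the 250 bases before the start alone, these counts were 9 of 11, 3 of 4 and 2 of 5, and a motif was present for 14 of the 20 single-window members (70.0%) and 42.2% of all such genes. The shares for all genes cover every gene with a window, whether or not it was tested here. No share was computed over tested genes or over all genes that rose or fell, so these counts do not set the members apart from them. A match is a description of letters, and binding was not measured. Among members that rose more with the GC and length offsets than without them, sequences are given for LDHA, PGK1 and PDK3. PDK1 and SLC2A3 also rose more with the offsets and are left out. A window of PDK1 held no motif and another held 2, and SLC2A3 has no entry. Sequences are also given for ALDOC, which with ENO2 rose most among the members, and for DLAT, which fell by more than 2-fold without the offsets. Each is the longest stretch of the 250 bases that lies outside every GENCODE exon, 5′ to 3′ on the strand of the gene, with motifs in capitals. They lie at chr17:28576949-28577145 on the minus strand (ALDOC), chr11:18394313-18394559 (LDHA), chrX:78103998-78104247 (PGK1), chrX:24465036-24465243 (PDK3) and chr11:112025158-112025407 (DLAT), the last 4 on the plus strand.
ALDOC: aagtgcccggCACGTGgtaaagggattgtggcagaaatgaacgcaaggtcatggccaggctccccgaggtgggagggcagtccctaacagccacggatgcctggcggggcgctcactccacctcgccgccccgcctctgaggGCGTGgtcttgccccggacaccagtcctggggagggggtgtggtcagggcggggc
LDHA: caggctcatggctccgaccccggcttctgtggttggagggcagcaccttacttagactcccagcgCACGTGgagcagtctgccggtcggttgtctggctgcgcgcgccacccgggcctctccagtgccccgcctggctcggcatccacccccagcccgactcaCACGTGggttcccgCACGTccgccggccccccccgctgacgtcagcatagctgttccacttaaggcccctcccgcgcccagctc
PGK1: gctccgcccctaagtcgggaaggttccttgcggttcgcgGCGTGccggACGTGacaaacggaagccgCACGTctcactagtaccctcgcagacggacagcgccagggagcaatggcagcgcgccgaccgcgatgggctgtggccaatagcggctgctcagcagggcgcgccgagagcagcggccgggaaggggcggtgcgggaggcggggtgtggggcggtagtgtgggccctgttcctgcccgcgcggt
PDK3: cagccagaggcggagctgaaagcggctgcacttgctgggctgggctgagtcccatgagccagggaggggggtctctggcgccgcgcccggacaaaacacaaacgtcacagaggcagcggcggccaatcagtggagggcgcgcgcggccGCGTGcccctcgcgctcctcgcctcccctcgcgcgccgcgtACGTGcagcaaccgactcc
DLAT: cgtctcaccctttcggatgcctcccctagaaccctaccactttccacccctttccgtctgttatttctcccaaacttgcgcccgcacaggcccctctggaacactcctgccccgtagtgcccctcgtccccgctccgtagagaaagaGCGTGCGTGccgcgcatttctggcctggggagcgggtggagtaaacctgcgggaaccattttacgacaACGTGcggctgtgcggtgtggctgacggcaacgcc
LDHA holds 5 matches in this stretch, from 185 to 73 bases before the start, and PGK1 holds 3, from 211 to 183 bases before it. In DLAT, which fell, 2 of its 3 matches overlap each other at 103 and 99 bases before the start. The letters were therefore present in promoters of genes that moved in either direction.

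Among the mRNAs of the 4 glucose transporters, SLC2A1 had the highest level per kilobase in both groups, and the largest rise was that of SLC2A3. SLC2A1 encodes GLUT1, the widespread basal glucose transporter. It had 277, 325 and 278 CPM in VC and 457, 461 and 508 CPM in VHL-KO samples. Every VHL-KO sample was higher, with a log2 fold change of 0.70 (standard error 0.09). SLC2A3, for the high-affinity transporter GLUT3, had 12.1, 11.6 and 12.4 CPM in VC and 73.0, 75.6 and 73.1 CPM in VHL-KO samples. The groups lay far apart, and the log2 fold change was 2.62 (standard error 0.11; edgeR quasi-likelihood F test, adjusted p = 6.51e-16). Per kilobase of exon, SLC2A1 made up 82.0% of the summed level of the 4 transporters in VC and 79.3% in VHL-KO cells, and SLC2A3 made up 3.09% and 11.3%. SLC2A12, a transporter with few reads, fell by 1.27 on the log2 scale and by 0.76 with the GC and length offsets. SLC2A6, a transporter of internal membranes, had a log2 fold change of 0.14 that did not pass the threshold, and with these offsets it was -0.31 and was called lower (edgeR, adjusted p = 0.00397; between 0.00262 and 0.695 in the alternatives).

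At the hexokinase step, which traps glucose in the cell, the changes of the 2 members HK1 and HK2 were small. HK1 had 207, 228 and 201 CPM in VC and 263, 265 and 275 CPM in VHL-KO samples. The groups did not overlap, but the log2 fold change of 0.34 became 0.15 and did not pass the threshold with library size alone (edgeR, adjusted p = 0.11; between 1.28e-05 and 0.11 in the alternatives). HK2, the isozyme known as inducible in tumours, had means of 24.9 ± 1.92 CPM in VC and 26.5 ± 2.45 CPM in VHL-KO cells (SD, n = 3 each), and its log2 fold change of 0.09 did not pass the threshold. It made up 12.0% of the level of both genes per kilobase in VC and 10.3% in VHL-KO cells. HKDC1, a related hexokinase outside the 36 members and named after its values were seen, fell by 0.79 on the log2 scale. Its level per kilobase was 55.8 ± 2.73 in VC and 32.3 ± 1.02 in VHL-KO cells, beside 30.8 ± 2.05 and 38.9 ± 0.940 for HK1 (TMM-normalized CPM per kilobase, SD, n = 3 each). HKDC1 thus stood above HK1 in VC and below it in VHL-KO samples. GPI, which turns the phosphorylated glucose into its fructose form, had 377, 416 and 349 CPM in VC and 715, 688 and 679 CPM in VHL-KO samples. This was a log2 fold change of 0.87 (standard error 0.09).

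Phosphofructokinase, the main control point of glycolysis, is built from 3 kinds of subunit, and the balance of their mRNAs shifted toward the liver type. PFKP, the platelet type, had 641, 751 and 594 CPM in VC and 1007, 1067 and 1102 CPM in VHL-KO samples. It had the highest level per kilobase in both groups, and its log2 fold change was 0.68. PFKL, the liver type, had 171, 202 and 154 CPM in VC and 508, 521 and 559.8 CPM in VHL-KO samples. Its log2 fold change of 1.59 was the largest of the subunits, and 1.13 with the GC and length offsets. PFKM, the muscle type, fell by 0.32 on the log2 scale, a call that was lost with upper quartile factors at -0.21. Per kilobase, PFKL rose from 16.2% to 28.4% of the summed subunits, PFKM fell from 13.5% to 6.29% and PFKP fell from 70.2% to 65.3%, with no overlap of samples between groups.

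The PFKFB enzymes make and remove fructose 2,6-bisphosphate, the activator of phosphofructokinase, and here the isozymes moved in opposite directions. PFKFB3 had 164, 186 and 179 CPM in VC and 120.3, 129.7 and 144 CPM in VHL-KO samples. All VHL-KO samples were lower, with a log2 fold change of -0.43 (edgeR quasi-likelihood F test, adjusted p = 0.000368). PFKFB4 had 19.7, 18.0 and 15.9 CPM in VC and 91.5, 103 and 92.1 CPM in VHL-KO samples. PFKFB4 rose by 2.42 on the log2 scale (standard error 0.11), and its share of the level per kilobase went from 8.70% to 40.7% while that of PFKFB3 went from 85.4% to 55.7%. PFKFB2 fell by 0.52 on the log2 scale and did not pass the threshold with the GC and length offsets, at -0.21 (edgeR, adjusted p = 0.0757; between 0.000118 and 0.0757 in the alternatives). The summed level of the 3 genes was 1.14 times that of VC, but 0.999 times with library size alone and 1.02 times with the GC and length offsets, where the groups overlapped under either.

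The aldolases, which split the sugar into triose phosphates, changed their order in counted reads. ALDOC, the isozyme known from brain, had 5.33, 5.92 and 4.11 CPM in VC and 104, 98.8 and 93.2 CPM in VHL-KO samples. The log2 fold change was 4.28 with a standard error of 0.13, and ALDOC and ENO2 changed places as the largest rise among the members when single samples were left out (edgeR quasi-likelihood F test, adjusted p = 2.63e-18). ALDOA, the widespread isozyme, had 21.3, 23.0 and 18.0 CPM in VC and 60.8, 71.1 and 53.9 CPM in VHL-KO samples, a log2 fold change of 1.58. ALDOA held 73.6% of the counted level per kilobase in VC but only 29.9% in VHL-KO cells, and ALDOC held the rest. The order rests on counted reads: 42.8% of the exon bases of ALDOA lie inside another annotated gene on the same strand, where HTSeq may discard reads it cannot assign, and its level per kilobase of 5.43 in VC stood far under that of TPI1 at 418. How many reads of ALDOA were left out cannot be read from the table.

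From the triose phosphates to phosphoglycerate, the mRNAs of 3 enzymes rose and those of the mutases did not pass the threshold. GAPDH, the dehydrogenase of this stretch and a common reference gene, had 6713, 7311 and 6213 CPM in VC and 14378, 13345 and 12977 CPM in VHL-KO samples. It was higher in all 3 VHL-KO samples, with a log2 fold change of 1.01 that became 0.82 under scaling to library size alone, or 0.56 with the offsets. TPI1, which interconverts the triose phosphates, had 1107, 1238 and 1037 CPM in VC and 2564, 2421 and 2358 CPM in VHL-KO samples. TPI1 rose by 1.12 on the log2 scale and by 0.77 with the offsets. PGK1, the first enzyme to make ATP, rose by 0.93 and by 1.29 with the offsets, so which of the pair rose more depended on the correction. PGAM1, the phosphoglycerate mutase, had means of 1076 ± 82.0 CPM in VC and 1100.2 ± 61.8 CPM in VHL-KO cells (SD, n = 3 each). The log2 fold change of 0.03 changed sign with the scaling, and the difference was within the spread of the samples. Its share of the summed level of these 5 genes per kilobase went from 11.2% to 5.98%. BPGM, the bisphosphoglycerate mutase, had a log2 fold change of -0.13, which turned positive with the offsets.

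At the enolase step, ENO2 rose far more than the main isozyme. ENO1 had 2349, 2599.9 and 2143 CPM in VC and 4207, 4160.1 and 4366 CPM in VHL-KO samples. The log2 fold change of this widespread enolase was 0.84 (standard error 0.09). ENO2, known as the neuron-specific enolase, had 19.0, 17.3 and 16.8 CPM in VC and 326, 350 and 348 CPM in VHL-KO samples. ENO2 thus had a log2 fold change of 4.27 (standard error 0.10; edgeR quasi-likelihood F test, adjusted p = 3.05e-20). Per kilobase ENO2 still made up the smaller part, 0.901% of the 3 enolases in VC and 8.88% in VHL-KO cells. ENO3, the muscle enolase, had a log2 fold change of -0.08, and VC replicate 2, at 26.6 CPM, stood above the other 5 samples, which lay between 14.4 and 18.9 CPM. ENO3 was called lower in a single alternative, at -0.29. PKM, which makes pyruvate and ATP, had 3820.1, 4366 and 3528 CPM in VC and 7352, 7179 and 7413 CPM in VHL-KO samples. The groups did not overlap, and the log2 fold change was 0.91. Counts per gene do not separate the M1 and M2 splice forms of PKM.

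**Figure D3:**
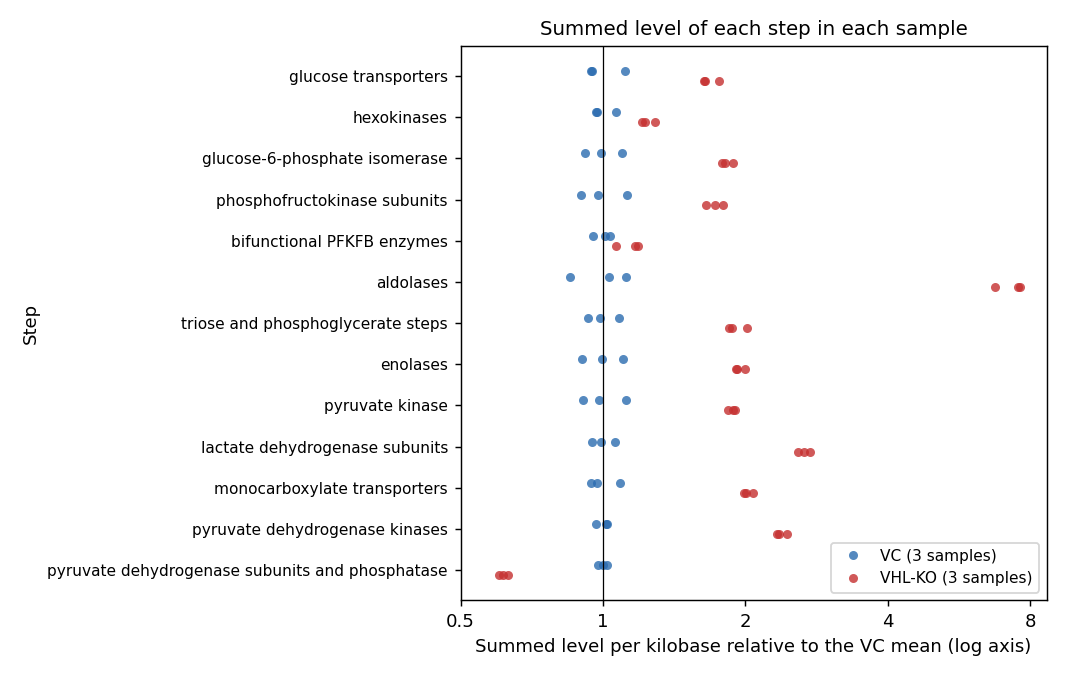
Summed level per kilobase of the members of each step in each sample, relative to the VC mean of that step, on a log axis, for 3 VC (blue) and 3 VHL-KO (red) samples. The aldolases lie at 7.30 times the VC mean on average, the PFKFB enzymes at 1.14 times, and the pyruvate dehydrogenase subunits with the phosphatase at 0.616 times. The aldolase sum rests on counted reads, and an unknown number of ALDOA reads may be left out. ALDOA alone rose by 1.58 on the log2 scale, so the sum would be lower if such reads were added in proportion. The PFKFB sum was 0.999 times the VC mean with library size alone and 1.02 times with GC and length offsets.

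Among the mRNAs for lactate formation and transport, LDHA and SLC16A3 rose and SLC16A1 fell. LDHA, the subunit that favours lactate formation, had 1757, 1684 and 1885 CPM in VC and 4862, 4733 and 4582 CPM in VHL-KO samples. This was a log2 fold change of 1.41 (standard error 0.08), or 1.74 with the offsets. LDHB, the other subunit, had between 25 and 78 counts per sample and a log2 fold change of -0.02. It made up 0.137% of the counted level per kilobase in VC and 0.0526% in VHL-KO cells. Another gene on the same strand covers 33.4% of its exon bases, where HTSeq may discard reads, so its true share is not known. The highest count of LDHB, 78, was that of VC replicate 3, and without this sample its log2 fold change was 0.60 and still did not pass the threshold. SLC16A3 encodes MCT4, the lactate exporter of glycolytic cells. It had 856, 968 and 796 CPM in VC and 1910.2, 1925 and 1992 CPM in VHL-KO samples. Every VHL-KO sample was higher, with a log2 fold change of 1.15, or 0.67 with the offsets. SLC16A1, for MCT1, which carries lactate in either direction, went the other way with 67.5, 63.4 and 86.5 CPM in VC and 21.8, 27.3 and 28.8 CPM in VHL-KO samples. The log2 fold change of SLC16A1 was -1.49 (edgeR quasi-likelihood F test, adjusted p = 3.31e-10), or -1.18 with the offsets, and its share of both transporters per kilobase went from 10.9% to 1.90%. BSG, the chaperone that carries both to the membrane, was named after its value was seen and rose by 0.94 on the log2 scale, or by 0.53 with the offsets.

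At the branch to the mitochondria, mRNAs of the kinases PDK1, PDK2 and PDK3 rose and those of the complex fell. PDK2 had 26.2, 26.9 and 23.8 CPM in VC and 57.2, 58.4 and 58.7 CPM in VHL-KO samples. It was the kinase with the most reads per kilobase, and its log2 fold change was 1.18. PDK3 had 2.11, 2.42 and 3.03 CPM in VC and 21.0, 17.2 and 20.3 CPM in VHL-KO samples. For PDK3 the log2 fold change of 2.95 (standard error 0.17) was the largest among the kinases, and its share of their level per kilobase went from 2.67% to 8.61%. PDK1, a known HIF target, rose by 1.10 on the log2 scale, and by 1.55 with the offsets. PDK4, counted 16 to 34 times in each sample, had a log2 fold change of 0.76 and did not pass the threshold. It was called higher with the offsets, at 1.35, when at least 10 reads were asked of every sample, and without VHL-KO replicate 1, with adjusted p-values from 0.00452 to 0.363 over the alternatives of the edgeR and DESeq2 tests.

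All 4 genes of the complex and its phosphatase were lower in VHL-KO cells. PDHA1, the catalytic alpha subunit of the first enzyme, had 152, 158 and 136 CPM in VC and 96.2, 92.9 and 97.3 CPM in VHL-KO samples. The log2 fold change was -0.64 (standard error 0.09), the same as that of PDHB, the beta subunit. DLAT, the acetyltransferase core, had 22.2, 22.4 and 26.4 CPM in VC and 8.83, 8.71 and 7.55 CPM in VHL-KO samples. Its log2 fold change of -1.50 (edgeR quasi-likelihood F test, adjusted p = 1.41e-09) was close to that of SLC16A1, and it was -0.97 with the offsets. PDP1, the phosphatase that switches the complex back on, fell by 0.83 on the log2 scale. With the offsets PDHA1, PDHB and PDP1 fell by 0.42, 0.37 and 0.42, and all were still called lower.

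The choice of isozyme was also compared as the log2 ratio of counts within each sample, which needs no scaling between libraries. Of 15 pairs, 12 did not overlap between the groups. Of all tested genes taken singly, 31.2% did not overlap with VHL-KO higher and 33.5% with VHL-KO lower. No share was computed over ratios of other gene pairs, so the count of 12 does not set isozymes apart from other genes. For each of the 12 pairs the exact two-sided permutation test gave p = 0.1, the smallest value that 3 against 3 samples allow. After Benjamini-Hochberg adjustment over the 15 pairs this p-value was 0.125. The ratio of ENO2 to ENO1 changed most, from a mean of -7.06 ± 0.15 in VC to -3.64 ± 0.06 in VHL-KO cells (SD, n = 3 each), a difference of 3.42. PFKFB4 against PFKFB3 differed by 2.85, ALDOC against ALDOA by 2.71 and SLC16A3 against SLC16A1 by 2.64. The counted ratio of ALDOC to ALDOA crossed 0, from -2.03 ± 0.09 to 0.68 ± 0.18. An unknown number of ALDOA reads may be left out, so the place of this ratio against 0 is uncertain. PFKFB4 stayed under PFKFB3 at -0.46 ± 0.17. PDK1 against PDK2, PDK4 against PDK2 and PFKFB2 against PFKFB3 overlapped, with differences of -0.06, -0.43 and -0.07 (p = 0.8, 0.4 and 0.8 by the exact permutation test). With GC and length offsets these differences became 0.65, 0.41 and 0.42, so their direction depended on the correction, and that of SLC16A3 against SLC16A1 became 1.85.

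**Figure D4:**
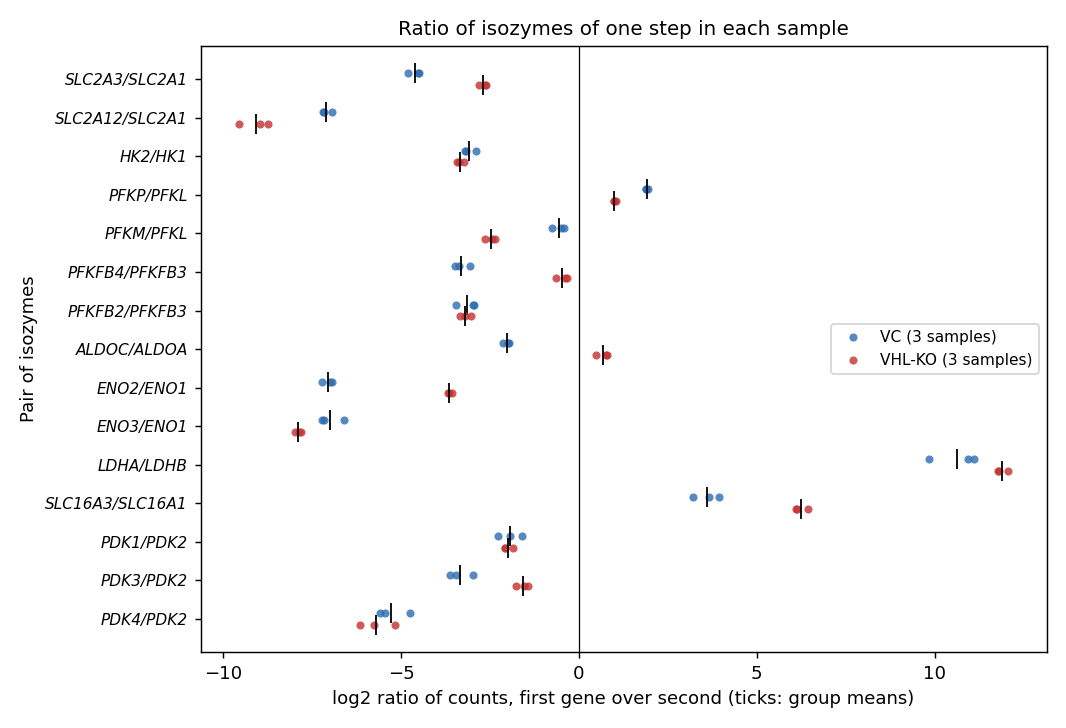
Log2 ratio of the counts of 2 isozymes of a step in each of 3 VC (blue) and 3 VHL-KO (red) samples, with ticks at the group means. The groups are apart for 12 of the 15 pairs, most of all for ENO2/ENO1, and ALDOC/ALDOA crosses 0 between the groups. This crossing rests on counted reads, and an unknown number of ALDOA reads may be left out. Among all tested genes taken singly, the groups do not overlap for 31.2% with VHL-KO higher and 33.5% with VHL-KO lower. No share was computed over other gene pairs.

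Beyond the members, 44 further genes of the pathway were listed, of which 26 had enough reads to be tested. Of these, 7 rose and 10 fell, beside 28.5% and 31.2% of all tested genes, and their median log2 fold change was -0.06, beside -0.01. The smaller lists within them hold 1 to 8 tested genes each, too few to set against those shares. Among other hexose transporters 3 of 6 tested genes rose and 2 fell, led by SLC2A9, a urate transporter, at -1.74 and SLC2A13, a myo-inositol transporter, at -1.59, or -1.05 with the offsets. Among other glycolytic enzymes 2 of 8 rose and 2 fell. HK3, a hexokinase known from blood cells, was called higher on 10 counts in VHL-KO replicate 3 and 0 counts in the other 5 samples, and no fold is given for it. The call was lost in 6 of 13 alternatives, among them DESeq2 and the offsets. PGM2, a phosphopentomutase, fell by 1.70 on the log2 scale. Of the other lactate genes 2 of 5 rose and 2 fell. LDHD, the mitochondrial D-lactate dehydrogenase, rose by 3.01 and EMB, an ancillary protein of MCT2, fell by 1.27, or by 0.65 with the offsets. No gene of 6 tested in pyruvate import and oxidation rose and 4 fell by edgeR's test, led by PDHX, which anchors a subunit of the complex, at -1.47 and MPC2, a subunit of the mitochondrial pyruvate carrier, at -1.14. With the offsets PDP2, another phosphatase of the complex, was called higher at 0.22, and it was named after this was seen. FBP1, the bisphosphatase that opposes phosphofructokinase in gluconeogenesis, had 0 counts in all 6 samples, which allows for a level of up to 0.079 to 0.141 CPM, that of 3 counts per sample. TIGAR, a phosphatase of fructose 2,6-bisphosphate, had a log2 fold change of 0.12 that did not pass the threshold, and with the offsets it was called higher at 0.45.

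The labelled cell line was checked against markers. The list of kidney epithelial markers held 8 genes, among them VIM, which is not specific to epithelium. Of these 7 were tested, 3 rose and 2 fell, where 28.5% and 31.2% of all tested genes did so. VIM had a log2 fold change of -0.07 and did not pass the threshold. PAX8, a renal lineage factor, rose by 0.52, whereas LHX1, a factor of the developing nephron, fell by 1.67 and EPCAM, an epithelial adhesion gene, fell by 1.42 on the log2 scale. PAX2 had 0 counts in all samples. Of 12 markers of blood, endothelial, stromal and liver cells 4 were tested, and 2 rose and 2 fell, too few to set against those shares. Their summed level was 45.3, 49.1 and 38.5 CPM in VC and 34.7, 33.0 and 29.9 CPM in VHL-KO samples, most of it COL1A1, a collagen gene. CD14, of monocytes, rose by 1.47, or 0.94 with the offsets, and PDGFRB, of pericytes, fell by 1.94, whereas PECAM1, of endothelium, was counted 1, 5 and 0 times in VC samples but 14, 7 and 9 times in VHL-KO samples, a call that was lost without VC replicate 3. PTPRC, the pan-leukocyte marker, had at most 1 count in any sample, and CD3E, COL3A1 and HBB had 0.

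Some members share exon bases with other genes, and whether the counting used strand is not given in the sources used here. SLC2A12 shares 51.2% of its exon bases with TBPL1 on the opposite strand, which had more counts than SLC2A12 and fell by 0.89 on the log2 scale. PDK2 shares 38.6% with SAMD14, which had between 18 and 36 counts per sample. PDHA1 shares 19.3% with MAP3K15, which had at most 13 counts in a VC sample but at least 260 in each VHL-KO sample, beside at least 2004 counts of PDHA1 in every sample. GAPDH shares 17.6% with a long noncoding RNA that rose by 2.65 but had at most 3026 counts, beside at least 217217 for GAPDH. LDHB shares 33.4% with a gene on its own strand, so an unknown number of its reads may be left out, as for ALDOA. GAPDH also has 65 annotated pseudogenes, which held between 177 and 405 counts in all, and reads that match both places equally were left out when the table was made.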

How the data were processed

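RNA-seq of 3 VC and 3 VHL-KO Caki-1 samples was used, grouped by the authors' labels. Per the methods and the submitters' processing notes, RNA was extracted with Trizol, and reads were trimmed with Trim Galore and cutadapt, aligned with STAR to GRCh38.p13, kept where uniquely mapped (SAMtools) and counted with HTSeq. The deposited values are the authors' raw read count per gene, without normalization. Versions, annotation release, strandedness and counting mode are not given in the sources used here.

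Groups were compared with edgeR 4.0.16 in R 4.3.3 (TMM factors, quasi-likelihood F test, two-sided, Benjamini-Hochberg adjustment) over 17401 genes (10 or more reads in some sample), at an adjusted p of 0.05. The comparison was tested on simulated data. A standard error is the log2 fold change divided by the square root of F. Exon lengths, GC contents and overlaps came from GENCODE release 44, which matched 60463 of the 60708 genes. Ratios used a prior count of 0.5. Replicates differed by more than sampling noise (chi-square per degree of freedom from 6.18 to 32.8). Floors of 3 counts cover counting error only. Alternatives were other scalings, DESeq2 1.42.0, other filters, each sample left out, the replicate block, and GC and length offsets (natural splines with 5 degrees of freedom). The sums per step under other scalings were added after seeing the data.

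The members and lists were chosen with earlier results of these data known. All members are accounted for. Values per sample are given for VHL, for the member of each step with the most reads per length and for that with the largest change, and other lists name their 2 or 3 largest changes past the threshold. Python 3.11.15 with matplotlib 3.10.9 made the figures.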

Additional observations from a re-analysis of the deposited data

How the results depend on the processing

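Of the 36 members, 26 kept their direction and their side of the threshold under all 15 alternatives. In the main analysis 12 pairs of isozymes did not overlap, beside 31.2% (VHL-KO higher) and 33.5% (VHL-KO lower) of all tested genes taken singly. No share was computed over other gene pairs. With library size alone 8 members in place of 13 were higher by at least 2-fold, and with GC and length offsets 1 in place of 3 was lower by at least 2-fold. The median log2 fold change of the members was 0.84 with upper quartile factors, 0.54 with library size alone and 0.59 with the offsets. The summed share of the library was 1.67 times higher without GAPDH and from 1.66 to 1.75 times higher when single samples were left out. The summed level of the PFKFB enzymes turned to 0.999 times with library size alone and was 1.02 times with the offsets, alternatives for the sums that were chosen after seeing the data.

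Among the genes run through every alternative, signs turned for 9 that did not pass the threshold in the main analysis, and the cause was not tested. With library size alone SLC2A6 was at -0.055, HK2 at -0.10, PGAM1 at -0.16, TIGAR at -0.07 and PDP2 at -0.15. With upper quartile factors ENO3 was at 0.025, LDHB at 0.10 and ARNT at 0.057. LDHB was at 0.0025 with relative log expression factors, 0.012 with DESeq2 and 0.0045 where every sample had to have 10 reads, and PGAM1 was at -0.0063 without the filter. With the offsets SLC2A6 was at -0.31, PGAM1 at -0.088, BPGM at 0.029, LDHB at 0.27 and ARNT at 0.18 (the last called higher). When single samples were left out, PGAM1 ranged from -0.0063 to 0.11, BPGM from -0.22 to 0.05, ENO3 from -0.24 to 0.24, LDHB from -0.25 to 0.6, TIGAR from -0.042 to 0.23 and PDP2 from -0.0026 to 0.12. TIGAR and PDP2 were added after their values were seen.

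Replicate numbers showed no clear pairing of the samples. Deviations of samples with the same number had correlations of 0.166, -0.0916 and 0.0637, and those with different numbers had correlations from -0.199 to 0.0668. Deviations were taken from means of 3 samples, so this check cannot exclude a pairing. With the replicate block 20 members were higher and 9 lower, as without it, and LDHB was at 0.10. With the replicate block and the offsets together 21 were higher and 10 lower, with ENO3 called lower at -0.29, 1 was lower by at least 2-fold, the median was 0.59, and SLC2A6 was at -0.31, PGAM1 at -0.088, BPGM at 0.037, LDHB at 0.37 and ARNT at 0.18. Low counts limit LDHB, PDK4 and SLC2A12 most, with at most 78 in each sample.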
